A study of Homo sapiens with 4 samples.

Results

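Mitochondrial ribosomal proteins are encoded by nuclear genes, made in the cytosol and imported into mitochondria, where they join ribosomal RNAs encoded by mitochondrial DNA. The genes described here are the protein-coding genes whose symbol is MRPL or MRPS followed by a number. There were 78 of them among the 58560 genes that had at least 1 annotated transcript in the files, 49 MRPL genes named for the large subunit and 29 MRPS genes named for the small subunit. The rule reads the symbol and no measured value, but the set itself was proposed with results of these data known.

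The mitochondrial ribosome has a small subunit that reads messenger RNA and a large subunit that joins amino acids. It makes only the membrane subunits of the respiratory chain and of ATP synthase that mitochondrial DNA encodes. Part of its proteins descend from those of the bacterial ribosome, and the others were added in the history of mitochondria. Glutamine feeds carbon and nitrogen into mitochondrial metabolism, and many carcinoma lines depend on it.

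RNA sequencing was done in A549, a human cell line from a lung adenocarcinoma. The comparison was between 2 control libraries, labelled with no treatment, and 2 libraries of cells washed with saline and kept in serum-containing medium without glutamine. The label of deprived replicate 1 gives 24 hours of deprivation and that of deprived replicate 2 gives 25 hours, while the protocol states 24 hours for both. The line is a single tumour line, and nothing states that libraries of a group came from separate cultures, so p-values measure only the spread between these samples. The files held 101496318 to 123414592 counts per library. Replicates correlated at 0.982 (controls) and 0.979 (deprived) across genes on the log scale, and libraries of different groups at 0.928 to 0.931.

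The cells carried the keratins of an epithelial line, since 6 of 10 fixed markers reached 1 TPM, a read level per length of transcript scaled to the library, while the alveolar surfactant gene SFTPA1 had no count and SFTPB and SFTPC stayed under 1 TPM. Summed over the list, these markers stood at 10271 and 8950 TPM in the controls and at 4416 and 4402 TPM in the deprived libraries. Among the markers that reached 1 TPM, the keratin genes KRT8 and KRT18, which carried most of the sum in the controls, fell, as did KRT19, EPCAM and CDH1. Their log2 fold changes, deprived over control, were -2.70, -1.13, -1.92, -1.97 and -2.85. KRT7 rose from 994 and 940 TPM to 2631 and 2610 TPM, the highest of these markers in the deprived libraries. NKX2-1, under 1 TPM in every library, also rose. Of 13 markers of fibroblasts, endothelium and blood, 2 reached 1 TPM. Their sum was 43.6 TPM in control replicate 1, against 2.30 in control replicate 2 and 0.903 and 1.65 in the deprived libraries. Most of the first value was the haemoglobin gene HBB, at 39.3 TPM in control replicate 1. The part of these shifts in the results below was not tested. In bulk RNA, fewer cells of a type and less RNA per cell cannot be told apart.

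All 78 genes had enough counts to be tested. After glutamine deprivation 29 of them rose, 15 fell and 34 did not pass the threshold, an adjusted p under 0.05 from edgeR's quasi-likelihood test over all 24527 tested genes. The share called among the members was 56.4%, and the share called among all tested genes was 49.6%, of which 25.2% were higher and 24.4% lower. Among tested protein-coding genes 64.1% were called, 34.3% higher and 29.8% lower, so the share of ribosomal protein genes called was not above that of protein-coding genes in general. The median log2 fold change was 0.11 over the members and -0.06 over all tested genes. Fold changes ran from -1.41 to 1.43 on the log2 scale, with 9 genes at least 2-fold higher and 3 at least 2-fold lower. In 34 genes both deprived libraries lay above both controls and in 26 both lay below, while 18 overlapped. Over all tested genes 76.5% had groups that did not overlap, 36.1% with deprived libraries higher and 40.5% with them lower.

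The direction of the set as a whole depended on how the libraries were scaled. With library size alone the median of all tested genes moved to -0.40 and that of the members to -0.23. On this scaling 19 members were called higher and 35 lower, beside 52.0% of all genes called (34.9% called lower). Among the 15411 tested protein-coding genes 3621 were called higher and 6548 lower. With upper-quartile factors the medians of all genes and of the members were -0.17 and 0.00. There 24 members were higher and 27 lower, beside 50.3% of all genes called (22.5% higher and 27.8% lower). Among the protein-coding genes 4769 were higher and 5234 lower. In each of these 3 scalings the members' median was above that of all genes, but the split between rises and falls was not stable. Across every scaling, filter, test, block and left-out library tried, 16 members were called higher each time and 12 were called lower each time. MRPL49, MRPL35, MRPL30, MRPL33, MRPL21, MRPS10, MRPS31, MRPS22, MRPS18A, MRPS18B and MRPS16 were among the former. MRPL17, MRPL12, MRPL41, MRPL15, MRPS34, MRPS27, MRPS9, MRPS24 and MRPS26 were among the latter.

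**Figure D1:**
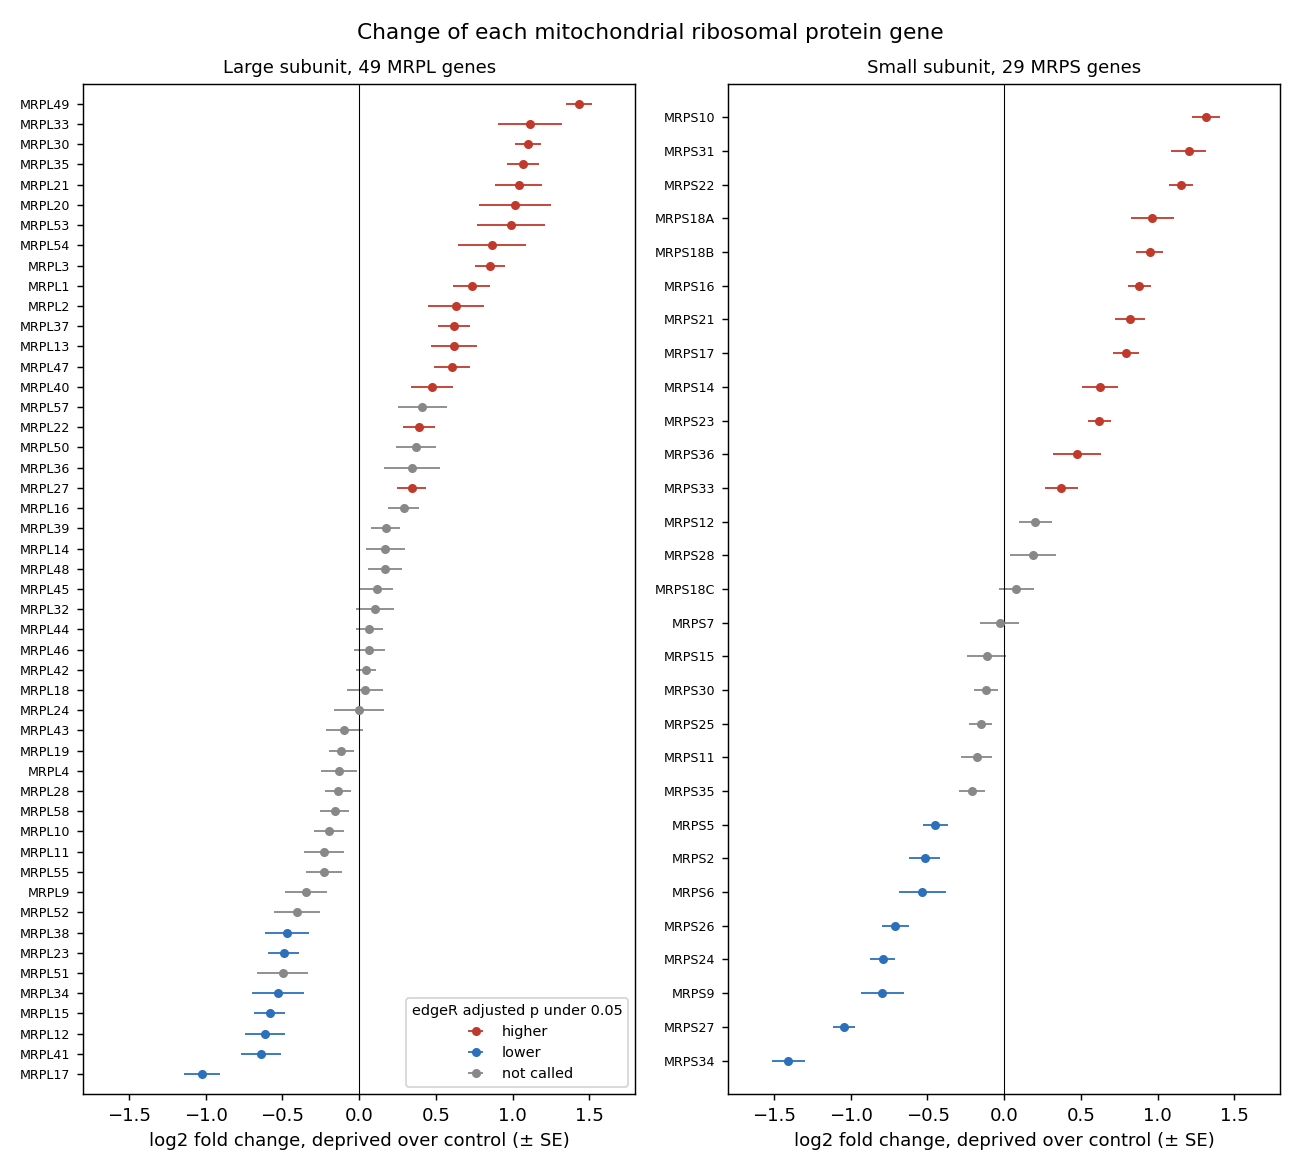
Log2 fold change of each of the 78 genes in deprived over control cells, with its standard error, for the 49 MRPL genes (left) and the 29 MRPS genes (right); colours mark the edgeR call. Large-subunit values run from -1.02 for MRPL17 to 1.43 for MRPL49, and small-subunit values from -1.41 for MRPS34 to 1.32 for MRPS10.

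The subunits were then compared. Of the 49 large-subunit genes 17 rose and 7 fell, and of the 29 small-subunit genes 12 rose and 8 fell. Thus 48.98% of the large-subunit genes and 68.97% of the small-subunit genes were called, beside 49.6% of all tested genes and 64.1% of protein-coding genes. Their medians were 0.11 and 0.08 on the log2 scale, and the standard deviation of the fold changes over genes was 0.56 in the large and 0.73 in the small subunit. The difference between subunits was not tested, since the members were proposed with results of these data known. Symbols do not always match the place in the ribosome. MRPS30 and MRPS18A are built into the large subunit, and MRPS36, now named KGD4, belongs to the oxoglutarate dehydrogenase complex. With the first pair counted as large and MRPS36 left out, 18 of 51 large-subunit genes rose and 7 fell, with a median of 0.11, and 10 of 26 small-subunit genes rose and 8 fell, with a median of 0.02.

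The direction of the summed levels depended on the scale. In CPM, counts scaled to library size with TMM factors, which weight long transcripts more, the large-subunit genes summed to 1833 and 2020 CPM in the controls and to 2445 and 2116 CPM in the deprived libraries. The small-subunit genes summed to 1695 and 1796 CPM in the controls and to 2144 and 1946 CPM in the deprived libraries. On this scale both deprived libraries lay above both controls, with log2 ratios of the means of 0.24 and 0.23. Without the TMM factors, which were higher in the controls, the CPM sums were 2103 and 2223 against 2106 and 1945 for the large and 1945 and 1976 against 1848 and 1789 for the small subunit, with log2 ratios of -0.09 and -0.11. Per length of transcript, on a scale that carries no TMM factors, the large-subunit sums were 2841 and 2859 TPM in the controls and 2624 and 2567 TPM in the deprived libraries. The small-subunit sums were 2191 and 2115 TPM in the controls and 1875 and 1939 TPM in the deprived libraries. Here both deprived libraries lay below both controls, with log2 ratios of -0.14 and -0.17. The balance between subunits moved little on the per-length scale. The large-subunit sum was 1.30 and 1.35 times the small-subunit sum in the controls and 1.40 and 1.32 times in the deprived libraries, so the groups overlapped.

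**Figure D2:**
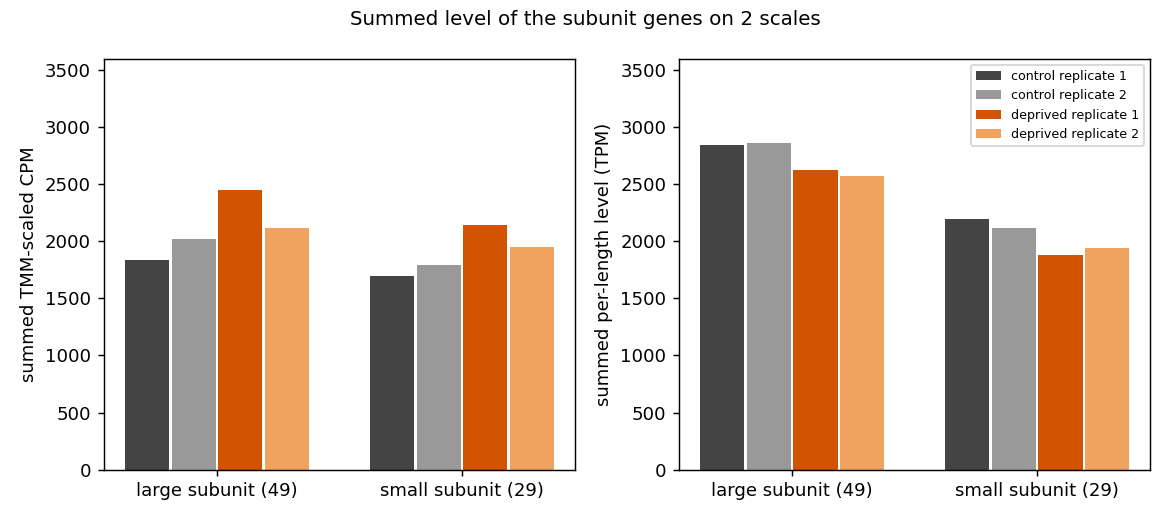
Summed level of the 49 large-subunit and 29 small-subunit genes in each library, in TMM-scaled CPM (left) and per length in TPM (right); each bar is 1 library. The deprived bars stand above the control bars on the left (2445 and 2116 against 1833 and 2020 CPM for the large subunit) and below them on the right (2624 and 2567 against 2841 and 2859 TPM).

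Per length, the subunits had similar lowest and highest levels in the controls. In control replicate 1 the lowest, median and highest large-subunit levels were 9.37, 49.6 and 272 TPM, and the small-subunit levels were 8.77, 49.6 and 250.1 TPM. In the deprived libraries the highest level was 17.1 and 16.7 times the lowest in the large subunit and 50.6 and 47.5 times in the small. MRPL12, the stalk protein that contacts translation factors, was the highest large-subunit gene at 261 ± 16.2 TPM (SD, n = 2) in the controls. It was followed by MRPL37 at 123 ± 4.3 TPM (SD, n = 2), MRPL3 at 117 ± 6.68 TPM (SD, n = 2) and MRPL15 at 112 ± 3.8 TPM (SD, n = 2), of which the last 3 lay close together. MRPS12, a protein of the decoding centre, was the highest small-subunit gene at 248 ± 2.82 TPM (SD, n = 2), ahead of MRPS16 at 233 ± 14 TPM (SD, n = 2), MRPS35 at 196 ± 0.443 TPM (SD, n = 2) and MRPS34 at 186 ± 14.2 TPM (SD, n = 2). MRPS12 and MRPS16 differed by about their spread, as did MRPS35 and MRPS34. The lowest were MRPL46 at 11 ± 0.725 TPM (SD, n = 2), MRPL20 at 11.3 ± 2.79 TPM (SD, n = 2), MRPS6 at 8.71 ± 0.0925 TPM (SD, n = 2) and MRPS14 at 13.1 ± 0.105 TPM (SD, n = 2). In the deprived libraries MRPL12 fell to 134 ± 11.7 TPM (SD, n = 2) and MRPS34 to 56.8 ± 2.47 TPM (SD, n = 2), while MRPS16 stood at 320.1 ± 8.18 TPM (SD, n = 2), the highest of all members.

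Among large-subunit genes the largest rise was that of MRPL49, a protein of the mitochondrial ribosome with no bacterial counterpart. MRPL49 (chr11:65122183-65127371, plus strand, ENSG00000149792) stood at 80.8 and 83.3 CPM in the controls and 234 and 208 CPM in the deprived libraries. Both deprived libraries were above both controls, and the log2 fold change was 1.43 ± 0.08 (SE, adjusted p = 5.63e-05). The next 3 rises were in MRPL33, MRPL30 and MRPL35, all with bacterial counterparts. MRPL33 (chr2:27771717-27988087, plus strand) had 5.43 and 7.22 CPM in the controls and 15.7 and 11.7 CPM in the deprived libraries, a log2 fold change of 1.11 ± 0.21 (SE, adjusted p = 0.00588). For MRPL30 (chr2:99181079-99197626, plus strand) the levels were 29.2 and 26.3 CPM in the controls and 61.4 and 57.4 CPM in the deprived libraries, with a log2 fold change of 1.10 ± 0.09 (SE, adjusted p = 0.000152). The level of MRPL35 (chr2:86199355-86213794, plus strand) was 63.5 and 68.8 CPM in the controls and 151 and 126 CPM in the deprived libraries, and its log2 fold change was 1.07 ± 0.11 (SE, adjusted p = 0.000411). In none of these 4 genes did the groups overlap, and the deprived libraries of MRPL33 differed most from each other.

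MRPL21 and MRPL20, again proteins of bacterial descent that bind ribosomal RNA, completed the 6 largest rises. MRPL21 (chr11:68891276-68903835, minus strand) was measured at 20.6 and 26.2 CPM in the controls and 53.1 and 43.1 CPM in the deprived libraries, a log2 fold change of 1.04 ± 0.15 (SE, adjusted p = 0.00198). MRPL20 (chr1:1401908-1407313, minus strand) was measured at 3.91 and 6.09 CPM in the controls and 10.9 and 9.37 CPM in the deprived libraries, a log2 fold change of 1.02 ± 0.24 (SE, adjusted p = 0.0137). The controls of MRPL20 differed from each other by more than its deprived libraries did, and with protein-coding transcripts alone its fold change was 0.71 with an adjusted p of 0.086. Exons of 4 of these 6 genes share bases with another gene, so some reads may belong to either. The overlapping genes lie on the other strand at MRPL49 (FAU and SYVN1), on the same strand at MRPL33 (BABAM2) and MRPL30 (a pair of unnamed genes), and on both at MRPL20 (MRPL20-AS1 on the other, RN7SL657P on the same). The other 11 large-subunit genes that rose were MRPL53, MRPL54, MRPL3, MRPL1, MRPL2, MRPL37, MRPL13, MRPL47, MRPL40, MRPL22 and MRPL27, with log2 fold changes from 0.99 down to 0.34. MRPL3 and MRPL2, which lie near the site of peptide bond formation, had 0.85 ± 0.10 (SE, adjusted p = 0.000811) and 0.63 ± 0.18 (SE, adjusted p = 0.0313).

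Of the 7 large-subunit genes that fell, MRPL17 changed most. MRPL17 (chr11:6680782-6683401, minus strand, ENSG00000158042), whose bacterial counterpart lies near the exit of the peptide tunnel, stood at 36.7 and 44.1 CPM in the controls and 21.2 and 18.5 CPM in the deprived libraries. Its log2 fold change was -1.02 ± 0.12 (SE, adjusted p = 0.000793), and no base of its exons is shared with another gene. MRPL41 (chr9:137551199-137552555, plus strand), a protein without bacterial counterpart, had 29.7 and 34.8 CPM in the controls and 22.9 and 18.5 CPM in the deprived libraries, a log2 fold change of -0.64 ± 0.13 (SE, adjusted p = 0.00881). MRPL12 (chr17:81703357-81707526, plus strand) had 129.6 and 134 CPM in the controls and 97.8 and 74.6 CPM in the deprived libraries, a log2 fold change of -0.61 ± 0.13 (SE, adjusted p = 0.00985). The deprived libraries of MRPL12 differed from each other more than its controls did, and both lay below them.

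MRPL15 (chr8:54135210-54147901, plus strand), MRPL34 and MRPL23 also fell. The values of MRPL15 were 57.6 and 68.6 CPM in the controls and 43.1 and 41.2 CPM in the deprived libraries, with a log2 fold change of -0.58 ± 0.10 (SE, adjusted p = 0.00408). Those of MRPL34 (chr19:17292609-17306843, plus strand), one of the smallest proteins of the subunit, were 10.6 and 12.6 CPM in the controls and 8.99 and 7.12 CPM in the deprived libraries, with a log2 fold change of -0.53 ± 0.17 (SE, adjusted p = 0.0434). MRPL23 (chr11:1947278-1984522, plus strand), which lines the exit of the peptide tunnel, was at 30.1 and 33 CPM in the controls and 24.1 and 20.9 CPM in the deprived libraries, a log2 fold change of -0.49 ± 0.10 (SE, adjusted p = 0.00844). The seventh was MRPL38, at -0.47 ± 0.14 (SE, adjusted p = 0.0361), whose controls lay apart, at 47.3 and 35.1 CPM while its deprived libraries were at 30.1 and 29.4 CPM. Antisense or overlapping exons are annotated at MRPL34 (ABHD8), MRPL23 (MRPL23-AS1), MRPL12 (an unnamed gene) and MRPL38 (a pair of unnamed genes, on either strand).

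Further large-subunit genes were read at the factor-binding stalk and the peptide tunnel. MRPL10, which anchors MRPL12 in the stalk, had 87.5 and 82.9 CPM in the controls and 80.5 and 68.2 CPM in the deprived libraries and a log2 fold change of -0.20 ± 0.10 (SE, adjusted p = 0.146). MRPL11, at the base of the stalk, had 11.2 and 13.3 CPM in the controls and 10.6 and 10.3 CPM in the deprived libraries and a log2 fold change of -0.23 ± 0.13 (SE, adjusted p = 0.206). Neither passed the threshold, but in both genes, as in MRPL12 and in 40.5% of all tested genes, the deprived libraries lay below both controls. With library size alone MRPL10, MRPL11 and MRPL12 were all called lower, at -0.54, -0.56 and -0.96, and so was MRPL4, at -0.47. On that scaling 35 of the 78 members, 34.9% of all tested genes and 6548 of the 15411 tested protein-coding genes were called lower. With protein-coding transcripts alone MRPL11 was called higher, at 0.52. In the tunnel wall MRPL4 had 30.7 and 34.7 CPM in the controls and 32.7 and 26.9 CPM in the deprived libraries, with overlapping groups and a log2 fold change of -0.13 ± 0.12 (SE, adjusted p = 0.4), and MRPL22 rose with a log2 fold change of 0.39 ± 0.10 (SE, adjusted p = 0.0219). MRPL45, at the tunnel exit where new proteins meet the membrane, had 61.5 and 74.6 CPM in the controls and 76.7 and 70.6 CPM in the deprived libraries and a log2 fold change of 0.11 ± 0.11 (SE, adjusted p = 0.426).

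In the small subunit the largest rises were in MRPS10, MRPS31 and MRPS22. MRPS10 (chr6:42206801-42217865, minus strand, ENSG00000048544), a protein of the head of the subunit, stood at 44.2 and 47.9 CPM in the controls and 122 and 107 CPM in the deprived libraries. Its log2 fold change was 1.32 ± 0.09 (SE, adjusted p = 0.000102), all of its counts lay on 1 protein-coding transcript, and its exons overlap no other gene. MRPS31 (chr13:40729135-40771173, minus strand), which has no bacterial counterpart, had 11.2 and 11.5 CPM in the controls and 28.4 and 23.9 CPM in the deprived libraries, a log2 fold change of 1.202 ± 0.12 (SE, adjusted p = 0.000352). Its annotated pseudogene MRPS31P5 had 2.16 and 4.25 CPM in the controls and 8.32 and 8.05 CPM in the deprived libraries, a log2 fold change of 1.35 ± 0.32 (SE, adjusted p = 0.0145), so reads that fit both copies may have been divided between them. MRPS22 (chr3:139005806-139357223, plus strand), another protein without bacterial counterpart, had 36.6 and 40.5 CPM in the controls and 87.5 and 83.9 CPM in the deprived libraries, a log2 fold change of 1.15 ± 0.08 (SE, adjusted p = 9.82e-05).

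MRPS18A, MRPS18B and MRPS18C are 3 paralogous genes whose proteins sit at different places of the ribosome. MRPS18A (chr6:43671303-43687791, minus strand), found in the large subunit, had 12.6 and 13.7 CPM in the controls and 28.8 and 22.6 CPM in the deprived libraries, a log2 fold change of 0.97 ± 0.14 (SE, adjusted p = 0.00193). MRPS18B (chr6:30617709-30626395, plus strand) had 73.3 and 77 CPM in the controls and 155 and 135 CPM in the deprived libraries, a log2 fold change of 0.95 ± 0.09 (SE, adjusted p = 0.000335). MRPS18C was at 11.6 and 12.8 CPM in the controls and 12.5 and 13.2 CPM in the deprived libraries, with overlapping groups and a log2 fold change of 0.08 ± 0.11 (SE, adjusted p = 0.606). MRPS16 (chr10:73248843-73252693, minus strand), one of the most abundant members, had 263 and 253 CPM in the controls and 491 and 459 CPM in the deprived libraries, a log2 fold change of 0.88 ± 0.08 (SE, adjusted p = 0.00025), and some of its exon bases also belong to DNAJC9. The other 6 MRPS genes that rose were MRPS21, MRPS17, MRPS14, MRPS23, MRPS36 and MRPS33, from 0.82 to 0.37 on the log2 scale. MRPS33 rose in CPM while its mean per-length level was 29.5 ± 3.98 TPM (SD, n = 2) in control and 24.3 ± 1.7 TPM (SD, n = 2) in deprived cells.

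The largest fall of any member was that of MRPS34, a protein without bacterial counterpart. MRPS34 (chr16:1771890-1773155, minus strand, ENSG00000074071) stood at 92.6 and 94 CPM in the controls and 38.9 and 31.6 CPM in the deprived libraries, a log2 fold change of -1.41 ± 0.11 (SE, adjusted p = 0.000157). MRPS27 (chr5:72219409-72320646, minus strand), a pentatricopeptide repeat protein that binds RNA, was at 190.3 and 186 CPM in the controls and 94.1 and 88.5 CPM in the deprived libraries, a log2 fold change of -1.04 ± 0.07 (SE, adjusted p = 9.27e-05). Their controls lay within a few percent of each other and well above both deprived libraries. MRPS9 (chr2:105037983-105099960, plus strand), which contacts transfer RNA in the head of the subunit, had 12.6 and 14.8 CPM in the controls and 8.38 and 7.42 CPM in the deprived libraries, a log2 fold change of -0.79 ± 0.14 (SE, adjusted p = 0.00459). MRPS24 (chr7:43866558-43869893, minus strand), near the entry of messenger RNA, had 60.3 and 66.5 CPM in the controls and 35.5 and 37.7 CPM in the deprived libraries, a log2 fold change of -0.79 ± 0.08 (SE, adjusted p = 0.000485), and its exons also belong to the readthrough gene URGCP-MRPS24.

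MRPS26, MRPS6, MRPS2 and MRPS5 completed the falls. MRPS26 (chr20:3045945-3048254, plus strand) had 26.4 and 25 CPM in the controls and 15.9 and 15.5 CPM in the deprived libraries, a log2 fold change of -0.71 ± 0.09 (SE, adjusted p = 0.00102). MRPS6 (chr21:34073224-34143034, plus strand) had 6.36 and 6.95 CPM in the controls and 4.75 and 4.44 CPM in the deprived libraries, a log2 fold change of -0.53 ± 0.15 (SE, adjusted p = 0.0302). MRPS2, a protein of bacterial descent on the back of the subunit, had 41.6 and 43.7 CPM in the controls and 32.4 and 27.1 CPM in the deprived libraries, a log2 fold change of -0.52 ± 0.10 (SE, adjusted p = 0.00745). MRPS5 had a log2 fold change of -0.45 ± 0.08 (SE, adjusted p = 0.00506). MRPS12, of the decoding centre, did not pass the threshold, with 125 and 144 CPM in the controls and 167 and 142 CPM in the deprived libraries and a log2 fold change of 0.20 ± 0.11 (SE, adjusted p = 0.178). MRPS30, which sits in the large subunit, had 79.7 and 79.7 CPM in the controls and 77.3 and 69.6 CPM in the deprived libraries, a log2 fold change of -0.12 ± 0.08 (SE, adjusted p = 0.261), and MRPS35 had -0.21 ± 0.09 (SE, adjusted p = 0.0907).

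**Figure D3:**
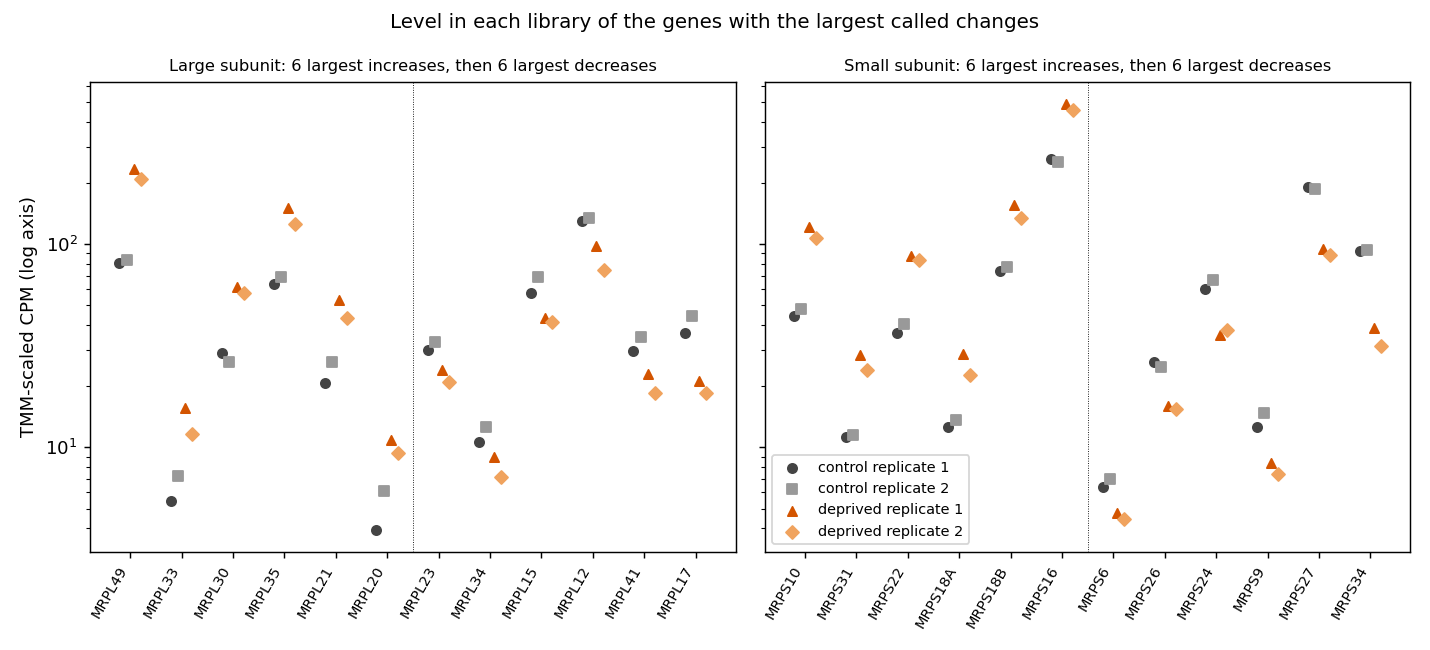
Level in each of the 4 libraries, in TMM-scaled CPM on a log axis, of the 6 largest called increases (left of the dotted line) and 6 largest called decreases (right of it) in the large (left panel) and small subunit (right panel). In each of the 24 genes the 2 deprived points lie on the same side of the 2 control points, as for MRPL49 (208 to 234 against 80.8 to 83.3 CPM) and MRPS34 (31.6 to 38.9 against 92.6 to 94 CPM).

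Members of either descent went in both directions. The 45 members with a bacterial counterpart had 17 rises and 10 falls (37.8% and 22.2%) and a median of 0.10 on the log2 scale. The 29 mitochondrion-specific members had 9 rises and 5 falls (31.0% and 17.2%) and a median of 0.07. Among tested protein-coding genes 34.3% were called higher and 29.8% lower. Members lie on 21 chromosomes. Of the 78 members 41 share exon bases with another gene, 29 of them on the other strand. Among the 37 that share none, 15 rose and 5 fell, and the median was 0.29. With library size alone 9 of the 37 rose and 13 fell with a median of -0.05, with upper-quartile factors 10 rose and 11 fell, without control replicate 1 there were 9 rises and 6 falls, and without deprived replicate 1 there were 9 and 7.

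The 29 members that rose had leading transcripts with a median of 44.2% guanine and cytosine (GC), against 58.3% in the 15 that fell and 49.6% in the 34 others. Over all tested protein-coding genes the corresponding medians were 46.2% in genes called higher, 52.3% in genes called lower and 50.9% in the rest. Across the 78 members the fold change and the GC content correlated at r = -0.39, and across 15411 protein-coding genes at r = -0.14. These are descriptions over genes of the same libraries, which are not independent. MRPL41 had the GC content of 71.9% and MRPS34 of 64.8%, while MRPS31 had 39.7% and MRPS10 41.6%. Other members with large changes lay the other way. MRPL49, the largest rise, had 53.1%, above the median of the members not called, and MRPL17, with 47.7%, and MRPS27, with 46.5%, fell with a GC content below it. The part of GC content in the fold changes was not tested.

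Within some genes the transcript used differed more than the gene's total. Shares could also differ widely between replicates of a group. In the deprived libraries MRPL27-204 held 68.7% and 0.94% of its gene's counts, MRPL10-204 52.5% and 4.53%, and MRPL21-201 26.7% and 69.7%. In the controls MRPL28-201 held 22.2% and 81.1%. Over protein-coding transcripts alone the log2 fold changes of MRPL10 and MRPL21 were -0.75 and 1.45, against -0.20 and 1.04 in total. How reads were divided among transcripts is not given in the sources used here, so shares are estimates, and the genes in this paragraph were chosen after their values were seen or because their call changed when only protein-coding transcripts were summed. MRPL11 did not pass the threshold in total, but its protein-coding transcript MRPL11-201 held 34.7% and 10.7% of its counts in the controls and 87.2% and 64.5% in the deprived libraries. Summed over protein-coding transcripts alone, MRPL11 was called higher, with a log2 fold change of 0.52 and an adjusted p of 0.0312. MRPL23, which fell in total, moved towards MRPL23-206, a transcript annotated for nonsense-mediated decay, a pathway that destroys messages with early stop codons. That transcript held 5.40% and 7.37% in the controls and 45.9% and 41.3% in the deprived libraries, while MRPL23-205, a coding one, went from 74.4% and 60.4% to 30.7% and 28.8%.

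MRPL40 rose in total by 0.47, but its processed transcript MRPL40-202 took 26.2% and 11.7% in the controls and 61.6% and 48.6% in the deprived libraries. With protein-coding transcripts alone the value of MRPL40 was -0.46 with an adjusted p of 0.120, so its direction depended on the transcripts counted. MRPS6 showed the opposite. Its retained-intron transcript MRPS6-204 held 48.8% and 47.3% in the controls and 17.3% and 15.4% in the deprived libraries, and with coding transcripts alone MRPS6 was at 0.18 with an adjusted p of 0.429. In MRPS11 the retained-intron transcript MRPS11-207 went from 12.9% and 10.7% to 28.1% and 32.7%. With coding transcripts alone MRPS11 was called lower, at -0.86 with an adjusted p of 0.00357, against -0.18 in total. In MRPS22 the share of the decay-annotated MRPS22-214 was 47.2% and 37.7% in the controls and 29.3% and 22.04% in the deprived libraries.

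**Figure D4:**
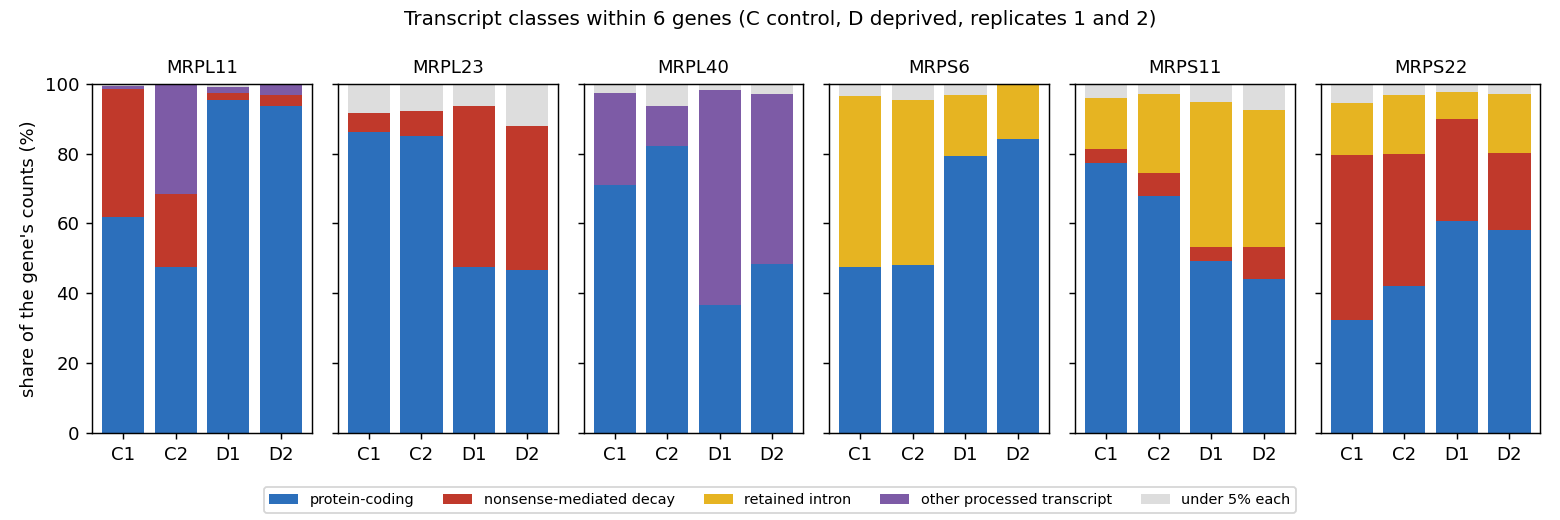
Share of each gene's counts, in percent, held by classes of transcript in the 4 libraries (C control, D deprived) for 6 genes; transcripts that held under 5% on average over the libraries are pooled in grey. Decay-annotated counts take up 45.9% and 41.3% of MRPL23 in the deprived libraries, and retained introns fall from 48.8% and 47.3% to 17.3% and 15.4% in MRPS6.

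Among the members whose call was lost with coding transcripts alone, MRPL53, a protein near the stalk, had 8.69 and 7.71 CPM in the controls and 19.8 and 12.8 CPM in the deprived libraries, and its log2 fold change went from 0.99 ± 0.22 (SE, adjusted p = 0.0115) to 0.60 (adjusted p = 0.101). MRPL1, which forms the stalk where transfer RNAs leave, had 9.35 and 9.48 CPM in the controls and 16.7 and 14.5 CPM in the deprived libraries, and went from 0.73 ± 0.12 (SE, adjusted p = 0.00351) to 0.41 (adjusted p = 0.0591). For MRPL2 the levels were 13 and 16.1 CPM in the controls and 26.1 and 19 CPM in the deprived libraries, and the value went from 0.63 to 0.58 (adjusted p = 0.0544). MRPL22 went from 0.39 to 0.29 (adjusted p = 0.373), with between 39.3% and 57.5% of its counts on coding transcripts. MRPS14, of the head of the small subunit, had 12.7 and 14.4 CPM in the controls and 22.1 and 19.7 CPM in the deprived libraries, and went from 0.63 ± 0.12 (SE, adjusted p = 0.00549) to 0.35 (adjusted p = 0.15). MRPL38, MRPS33 and MRPS36 kept their direction, at -0.68 (adjusted p = 0.0839), 0.31 (adjusted p = 0.0828) and 0.42 (adjusted p = 0.0892). In MRPL1 and MRPS14 the coding share was 93.9% or more in both controls and at most 81.2% and 94.5% in the deprived libraries.

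MRPL51 and MRPS35 were newly called lower. MRPL51 had 20.1 and 27.4 CPM in the controls and 18 and 15.5 CPM in the deprived libraries, with a log2 fold change of -0.50 ± 0.17 (SE, adjusted p = 0.0505) in total and of -0.56 (adjusted p = 0.0471) over coding transcripts. MRPS35 had 169 and 191 CPM in the controls and 159 and 151 CPM in the deprived libraries, and went from -0.21 to -0.27 (adjusted p = 0.0407). The sign alone differed in MRPL18, MRPL24, MRPL42, MRPL43, MRPL48, MRPS18C and MRPS30, none of them called either way. MRPL48 was the largest of these, from 0.17 to -0.36 (adjusted p = 0.0965). MRPL42 stood at 109 and 109 CPM in the controls and 114 and 111 CPM in the deprived libraries, a log2 fold change of 0.04 ± 0.06 (SE, adjusted p = 0.606). Its mean per-length level was 102 ± 10.9 TPM (SD, n = 2) in control and 59.2 ± 15.7 TPM (SD, n = 2) in deprived cells, so the 2 scales differed in direction. Most of its counts lay on MRPL42-206, a transcript of 15582 bases, whose share was 66.8% and 54.8% in the controls and 78.9% and 69.98% in the deprived libraries.

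Over all members, summing only protein-coding transcripts left 22 called higher and 16 lower, beside 58.9% of all genes (30.3% higher and 28.6% lower), and 20 of the 29 rises and 13 of the 15 falls were called again. MRPL46 was newly called higher at 0.67 (adjusted p = 0.0316), on the 12.7% to 22.02% of its counts that lay on coding transcripts. The 79 annotated pseudogenes of these genes held 0.191% to 0.277% of the counts of members and pseudogenes together, and 10 of them had enough counts to be tested.

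The promoters of the members were read from RefSeq (GRCh38.p14), in windows from 250 bases before to 50 bases after each annotated start. Of the 78 members 69 matched, with 85 windows, among 35116 windows of all genes. Motif letters were searched on both strands, and the motifs and this comparison were chosen with the calls known. The core that ETS factors such as GABPA, a regulator of nuclear genes for mitochondria, are known to bind, CCGGAAG or its reverse complement CTTCCGG, was in 38.8% of the members' windows and in 10.3% of all windows. It was in a window of 17 of the 24 matched members that rose (70.8%), 3 of the 13 that fell (23.1%) and 10 of the 32 others (31.2%). Among tested protein-coding genes with a window, it was found for 26.2% of those called higher, 14.6% of those called lower and 18.2% of the rest. The median log2 fold change was 0.42 over the 30 members with the letters and -0.11 over the 39 without, and 46.5% of all protein-coding genes with the letters were called higher, against 32.6% of those without. A match is a run of letters, not a bound site.

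For the 9 members with the letters that rose most, the site nearest to the start is shown with the ETS letters in capitals and 10 bases on either side, 5′ to 3′ on the gene's strand, because the letters recur near the starts of these genes.
MRPS10: cgctgtaaccCCGGAAGcaatcctgag
MRPS31: aggcgccaggCCGGAAGcggaagagag
MRPS22: ctcccaaccaCTTCCGGcgcaagtggc
MRPL33: gggccgtgccCCGGAAGcagttgttgt
MRPL30: gtctgctgcgCTTCCGGgaagtggtca
MRPL20: aggggctgacCCGGAAGcgctcgtgac
MRPL53: tgcacgagttCTTCCGGggcggaggtc
MRPS18A: gcgctacgttCCGGAAGcggaaatgga
MRPS16: ggatcatccgCTTCCGGagtcgaggtt
They lie at chr6:42217867-42217893, chr13:40771206-40771232, chr3:139343989-139344015, chr2:27771701-27771727, chr2:99181029-99181055, chr1:1407298-1407324, chr2:74472664-74472690, chr6:43687806-43687832 and chr10:73252623-73252649, on the strand of the gene. The first base of the letters was 22 bases before the start in MRPS10, 32 in MRPS31, 21 in MRPS22 and MRPL20, 31 in MRPS18A, 8 in MRPL33 and 145 in MRPL30. In MRPL53 and MRPS16 it was base 1 and base 6, counted with the start as base 1. MRPS22 held 3 matches in its window, and MRPL20 and MRPL53 held 2. The windows of MRPL49, the member that rose most, did not hold the letters.

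The members that fell and held the letters were MRPS34, MRPS26 and MRPL38, at chr16:1773137-1773163, chr20:3046005-3046031 and chr17:75905076-75905102, shown for contrast.
MRPS34: cttccggtgaCTTCCGGccggaccgct
MRPS26: ccccgcgccgCTTCCGGggcacggtgg
MRPL38: ccaacgggcaCTTCCGGagccgggcgt
MRPS34, the member that fell most, held 3 matches, as many as any member shown. Another of them opens its printed stretch in small letters, since only the site nearest to the start is in capitals. Of the 30 members with the letters 17 rose and 3 fell, and of the 39 without them 7 rose and 10 fell. No test was made of this difference.

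For the small-subunit gene that rose most, MRPS10, the 246 bases before the first annotated exon (chr6:42217866-42218111, minus strand, GRCh38.p14) are shown, with the ETS letters in capitals near the 3′ end.
MRPS10 upstream: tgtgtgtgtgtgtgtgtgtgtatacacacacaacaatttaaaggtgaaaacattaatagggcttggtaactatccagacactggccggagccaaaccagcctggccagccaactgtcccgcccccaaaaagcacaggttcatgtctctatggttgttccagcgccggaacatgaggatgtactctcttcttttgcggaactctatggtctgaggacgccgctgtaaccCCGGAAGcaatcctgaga
The windows of MRPL49 and MRPS27 lie in annotated exons and are not shown.

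The letters AAGATGGC, known to be bound by YY1, were in 27.1% of the members' windows and in 2.89% of all windows. They hold a start codon, so a match just after the start can be the beginning of the coding sequence. They were found for 7 of the 24 members that rose, 3 of the 13 that fell and 11 of the 32 others, so among the members their share did not follow the calls. Over tested protein-coding genes they were found for 7.97% of those called higher, 4.14% of those called lower and 4.77% of the rest. Of protein-coding genes with the letters 49.4% were called higher, against 34.5% of those without. In MRPL49 and MRPS27, which moved in opposite directions, the letters began at bases 24 and 17, counted with the start as base 1, at chr11:65122334-65122361 and chr5:72320207-72320234, shown with the letters in capitals.
MRPL49: gtagcaggtaAAGATGGCagctaccatg
MRPS27: ggtacgctccAAGATGGCtgcctccata
The letters GCGC and TGCGC with any 1 base between them, known for NRF1, another regulator of such genes, were in 11.8% of the members' windows and 5.78% of all, and were found for 2 members that rose and 3 that fell. Counted by gene, 9 of the 69 matched members held them, beside 11.8% of tested protein-coding genes. CACGTG, the letters known for MYC, were also found for 9 of the 69 (13%), beside 12% of tested protein-coding genes. The letters TGATGNAA of ATF4 with C/EBP partners, which act in the response to amino acid shortage, were in 1.18% of the members' windows and 3.62% of all. No match says only that these letters are not in the window.

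**Figure D5:**
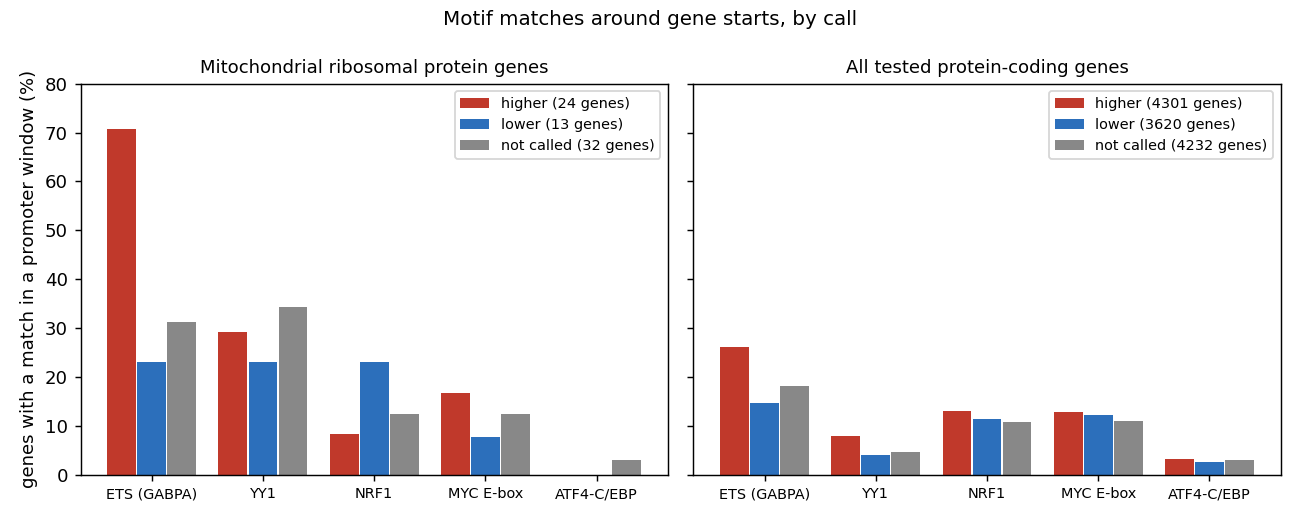
Share of genes, in percent, with each motif's letters in a promoter window, by call, for the mitochondrial ribosomal protein genes (left) and all tested protein-coding genes (right). The ETS letters are found for 70.8% of members that rose and 23.1% of those that fell, against 26.2% and 14.6% over all protein-coding genes.

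Many members share a promoter region with a gene on the opposite strand. Head-to-head partners, with starts within 1000 bases, were annotated for 29 members, giving 28 pairs in which both genes were tested. Both genes were called in 8 pairs, 4 in the same direction, while 64.1% of tested protein-coding genes were called. Over the pairs the log2 fold changes of member and partner correlated at r = 0.15. MRPL49 rose with its partner FAU, a gene for a cytosolic ribosomal protein fused to a ubiquitin-like one, which had a log2 fold change of 0.89. MRPL47 rose with NDUFB5, a subunit gene of respiratory complex I, at 0.86, and MRPL21 with IGHMBP2 at 0.78. With protein-coding transcripts alone NDUFB5 was at -0.24 (adjusted p = 0.182) and IGHMBP2 at 0.90 (adjusted p = 0.0668). With library size alone IGHMBP2 was at 0.44 (adjusted p = 0.119). MRPS27 fell while its partner PTCD2 rose by 0.50, and MRPS18B rose while PPP1R10 fell by 0.45 on the log2 scale. MRPL46 and MRPS11 are each other's partner on chromosome 15, and neither passed the threshold.

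The other genes of mitochondrial translation were read from lists. Among tested protein-coding genes 34.3% were called higher and 29.8% lower. With library size alone 3621 of 15411 were called higher and 6548 lower. Of 5 ribosomal proteins whose symbols fall outside the rule, 3 rose and 2 did not pass, while with library size alone none rose and 2 fell. PTCD3, which guides messenger RNA into the small subunit, had a log2 fold change of 0.53 ± 0.07 (SE, adjusted p = 0.000972), DAP3, a GTP-binding protein of the small subunit, of 0.55 ± 0.10 (adjusted p = 0.00548), and AURKAIP1 of 0.56 ± 0.10 (adjusted p = 0.00549). Of 17 translation factors 6 rose and 1 fell, with a median of 0.12, while with library size alone 4 rose and 6 fell. GFM1, the elongation factor that moves transfer RNAs through the ribosome, went from 125 and 135 CPM to 270.5 and 267 CPM, a log2 fold change of 1.05. MTRF1L, a release factor, and LRPPRC, which stabilises mitochondrial messages, rose by 0.86 and 0.76. MTFMT, which formylates the initiator transfer RNA, was the one that fell, by 0.70 on the log2 scale.

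Genes for assembly of the ribosome and modification of its RNA went both ways, as the ribosomal proteins did. In this list of 28 there were 11 rises and 9 falls, beside 34.3% of protein-coding genes called higher and 29.8% lower. The median was 0.02, while with library size alone 7 of the 28 rose and 16 fell. MRM1, a methyltransferase of large-subunit ribosomal RNA, went from 24.0 and 23.6 CPM in the controls to 6.04 and 6.63 CPM in the deprived libraries, a log2 fold change of -1.91 ± 0.11 (SE). METTL15, a methyltransferase of small-subunit ribosomal RNA, went the other way, from 37.1 and 40.8 CPM to 99.7 and 95.0 CPM, a log2 fold change of 1.32 ± 0.08 (SE). RPUSD3, a pseudouridine synthase, had -1.65 ± 0.10 (SE). The mitochondrial ribosomal RNAs themselves had at most 1.803 CPM (MT-RNR2 in control replicate 1), and no change was read from them. The cause of these low counts was not tested.

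Of 13 transcription factors known for nuclear genes of mitochondria 9 rose and 1 fell, beside 34.3% of protein-coding genes called higher and 29.8% lower. With library size alone 6 rose and 3 fell, the median moving from 0.36 to 0.02, with upper-quartile factors 7 rose and 2 fell, and without control replicate 2 there were 6 rises and 1 fall. GABPB1, the partner of the ETS factor GABPA, stood at 28.5 and 31.0 CPM in the controls and at 96.1 and 89.6 CPM in the deprived libraries, a log2 fold change of 1.64 ± 0.08 (SE). GABPA had a log2 fold change of 0.62 ± 0.07 (SE), and 0.29 with library size alone. MYC, which drives ribosome production, rose by 2.02 and CREB1 by 1.24 on the log2 scale. PPARGC1B, a coactivator of mitochondrial genes, fell by 1.16.

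For comparison, there were 54 rises and 1 fall among the 76 tested genes for cytosolic ribosomal proteins. Among tested protein-coding genes 34.3% were called higher and 29.8% lower. The median of the cytosolic genes was 0.56 on the log2 scale with quartiles of 0.35 and 0.71. With library size alone 25 of them rose and 9 fell, with a median of 0.22. Without control replicate 1 there were 31 rises and without deprived replicate 1 there were 35. The mitochondrial set had a median of 0.11 and quartiles of -0.22 and 0.62. No test of the difference was made.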

How the data were processed

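RNA of 4 A549 libraries, 2 control and 2 glutamine-deprived, was sequenced from poly-A-selected messenger RNA, per the labels' protocols. The submitters' processing notes name HISAT2 2.0.5, featureCounts 1.5.0-p3, DESeq2 1.20.0 and hg38, with no role for each. No source used here gives the annotation, strand use or how reads were divided among transcripts. The values the authors deposited are estimated counts per transcript, already whole numbers, per the file headers. The deposited table of long non-coding RNAs holds no member and was not used.

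Transcripts were matched to GENCODE release 29 (GRCh38): 205306 of 229420 matched, holding 98.0% to 98.2% of each library's counts, and were summed to genes. Genes were filtered with filterByExpr, scaled with TMM (factors 1.15, 1.10, 0.862 and 0.919) and tested two-sided with edgeR 4.0.16 in R 4.3.3 (glmQLFit, glmQLFTest, Benjamini-Hochberg over 24527 genes, adjusted p under 0.05). SEs are the log2 fold change over the square root of F. Per-length levels (TPM) were computed from summed counts over transcript lengths. Replicates differed beyond sampling noise (chi-square per degree of freedom 34.7 and 48.8). The common coefficient of variation was 0.210. The edgeR fit was tested on simulated counts, with less spread between replicates than these libraries had and fewer changed genes than were called here.

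The members and lists were chosen with earlier results of these data known. Genes named were, per subunit, the 6 largest called increases and decreases with groups that do not overlap, the 4 highest and 2 lowest per-length levels, a fixed set (MRPL4, MRPL10, MRPL11, MRPL12, MRPS2, MRPS12, MRPS30 and the MRPS18 genes), members whose call or sign changed with coding transcripts alone, and the 3 smallest p of each list. Lists were ribosomal proteins outside the rule, translation factors, assembly and RNA modification, transcription factors, cytosolic ribosomal proteins, A549 markers and markers of other cells. Motif, GC, partner and overlap comparisons were added after values were seen, and other genes named there were chosen after seeing them. The alternatives tried were no filter, at least 50 counts in 2 libraries, RLE factors, upper-quartile factors, no factors, DESeq2 1.42.0, limma-voom (limma 3.58.1), a replicate block, coding transcripts only, subunits by place, and each library left out.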

Additional observations from a re-analysis of the deposited data

How the results depend on the processing

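Counts of called mitochondrial ribosomal protein genes moved most with scaling. With library size only 19 rose and 35 fell (large subunit 10 and 21, small subunit 14 falls), and with upper-quartile factors 27 fell (large subunit 15). The medians then reversed, to -0.22 in the large and -0.25 in the small subunit with library size only, and to -0.026 in the small subunit with upper-quartile factors. The count over the 37 members sharing no exon base (15 rises and 5 falls, fewer genes entering) was added after seeing the data, as was CPM without TMM factors. Of the other mitochondrial translation genes 11 rose and 24 fell with library size only, 16 fell with upper-quartile factors, and 13 rose with protein-coding transcripts only. Summed levels reversed in TMM-scaled CPM, to 0.24 and 0.23 (log2) for the large and small subunits, and were -0.094 and -0.108 in CPM without TMM factors and -0.22 and -0.23 over protein-coding transcripts. Single genes that changed sign and passed the threshold under either choice were MRPL18 (-0.30), MRPL42 (-0.29) and MRPL44 (-0.27) with library size only, and MRPL11 (0.52), MRPL40 (-0.46) and MRPS6 (0.18) with protein-coding transcripts only. For the scaling and transcript choices the cause was not tested.

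With 1 library left out, the median log2 fold change of the members ran from 0.02 to 0.22. Over tested protein-coding genes the median then ran from -0.03 to 0.02. The small-subunit median ran from -0.00 (-0.0015, without control replicate 1) to 0.14, and the large-subunit median from 0.03 to 0.24. Where an arm was left with 1 library, it was assumed to vary like the other group. Across genes, the deviations of same-numbered libraries from their group means did not go together (r = -0.02). This value cannot show whether such libraries shared a culture or handling. With the replicate block 23 members rose and 13 fell, and over all genes 5529 rose and 5079 fell. RLE factors, DESeq2, limma-voom and both filters kept the counts of members within 1.5 times. MRPL20 and MRPS6 were among the least abundant members, and the part of counting depth in their spread was not tested.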
